A study of Homo sapiens with 14 samples.

Results

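H3K27me3, the trimethylation of lysine 27 on histone H3, is deposited by Polycomb repressive complex 2 and marks chromatin in which genes are kept off. Some CBX proteins, CBX2 and CBX8 among them, are subunits of Polycomb repressive complex 1 and read the mark. It is best known from the promoters of developmental regulators that a differentiated cell no longer uses, and H3K4me3, the mark of active promoters, sets apart the start sites that are in use. In hepatic stellate cells, the liver cells that turn into matrix-producing myofibroblasts in fibrosis, genes of other lineages would be among those carrying it.

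To describe the H3K27me3 regions that did not depend on 1 library, the peaks of 4 H3K27me3 CUT&Tag lists were merged wherever they shared at least 1 bp on the 24 standard chromosomes, and the regions called in all 4 lists that touched no H3K4me3 peak in any H3K4me3 list were kept. This left 2331 of 25436 merged H3K27me3 regions. CUT&Tag uses an antibody to bring a transposase to chromatin that carries the mark, and sequences what it cuts out. The cells were LX-2, an immortalised human hepatic stellate line of wild type genotype, grown for 2 days on a soft or on a stiff matrix (a fibronectin-coated polyacrylamide hydrogel in the study's methods), with 2 H3K27me3 and 2 H3K4me3 libraries on each. The 4 p-JUN lists (phosphorylated JUN, an AP-1 factor) and the merged H3K27ac list of each matrix were used beside them. The p-JUN libraries labelled stiff carry TCP in their titles, the study's abbreviation for culture plastic, so their substrate is not settled. All libraries came from 1 cell line, and no label says that replicates were separate cultures. The study's methods call the replicates of its sequencing experiments biological without saying how they were separated. The p-values measure the spread between these libraries, which may be in part technical. Of 12 stellate and myofibroblast markers, 10 had H3K4me3 within 1 kb of a start site in all 4 libraries, among them COL1A1, PDGFRB and ACTA2. Of all protein-coding genes 62.8% had it. So had 0 of 7 hepatocyte, 2 of 4 cholangiocyte, 1 of 5 endothelial, and 1 of 6 blood and macrophage markers. Of the 12 stellate and myofibroblast markers, COL1A2 and COL3A1 did not, and none had a start site in one of the 2331 regions. The share of all protein-coding genes with one was only 1.18%, and the rule left out regions that touch H3K4me3. The absence of these 12 genes therefore cannot set them apart from other genes.

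The regions were selected on their H3K27me3 calls in the 4 lists and on the absence of an H3K4me3 call, so their H3K27me3 values are given as a description. The natural comparison was with the 2438 regions without H3K4me3 that were called in 3 lists, which differ from them by a single missing call. A further 19900 regions without H3K4me3 were called in 1 or 2 lists, and 271 regions called in all 4 touched H3K4me3.

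Stretches of some regions are shown first, because the 2331 regions held at least 3 kinds of sequence. The first kind is the promoter of a developmental regulator. The 160 bases before a start site are given for DLX5, PAX2 and SOX2, developmental transcription factors, and for SHH, a secreted morphogen. Among the regions at starts of such factors, not among all 2331, those of DLX5, PAX2 and SOX2 were near the top by lowest −log10 q over the 4 libraries. CG pairs, which were dense before some of these start sites, are in capitals. Each stretch reads 5′ to 3′ on the strand of the gene in hg19. The second kind is intronic, shown by the middle of the RBFOX3 region with the highest such value.
DLX5, chr7:96654263-96654422, minus strand: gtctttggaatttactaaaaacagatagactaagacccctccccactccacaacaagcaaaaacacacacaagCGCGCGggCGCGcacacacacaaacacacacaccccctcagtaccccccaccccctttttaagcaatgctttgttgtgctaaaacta
PAX2, chr10:102508447-102508606, plus strand: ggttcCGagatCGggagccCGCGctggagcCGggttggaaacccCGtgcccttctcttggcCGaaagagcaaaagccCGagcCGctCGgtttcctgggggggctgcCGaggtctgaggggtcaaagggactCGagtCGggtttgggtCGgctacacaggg
SOX2, chr3:181429553-181429712, plus strand: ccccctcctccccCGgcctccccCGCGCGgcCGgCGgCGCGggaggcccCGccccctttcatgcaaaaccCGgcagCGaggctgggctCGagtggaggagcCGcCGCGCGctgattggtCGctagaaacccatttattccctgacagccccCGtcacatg
SHH, chr7:155605158-155605317, minus strand: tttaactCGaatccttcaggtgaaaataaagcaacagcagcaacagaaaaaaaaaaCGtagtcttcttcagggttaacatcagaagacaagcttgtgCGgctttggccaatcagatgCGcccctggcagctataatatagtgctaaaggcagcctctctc
RBFOX3 intron, chr17:77096495-77096654, plus strand: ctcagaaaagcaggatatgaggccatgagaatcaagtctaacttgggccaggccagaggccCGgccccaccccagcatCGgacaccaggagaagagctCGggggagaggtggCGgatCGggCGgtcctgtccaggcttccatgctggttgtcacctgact

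The stretch before SOX2 held 18 CG pairs in 160 bases and that before PAX2 held 14, whereas the stretches before DLX5 and SHH held 5 and 4. The RBFOX3 stretch held 6. Over whole regions, the ratio of observed to expected CG pairs had a median of 0.559 in the 18 regions that held the start site of a listed developmental transcription factor or ligand (range 0.252 to 0.720). In the 23 regions of RBFOX3 it was 0.287 (range 0.162 to 0.421).

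The third kind is tandem repeat, shown because 6 of the 8 regions with the highest lowest −log10 q were at least 50% made of recurring words of 12 bases. In each stretch the 12 bases that recur most often in the region are in capitals.
chr20 repeat, chr20:47132540-47132659: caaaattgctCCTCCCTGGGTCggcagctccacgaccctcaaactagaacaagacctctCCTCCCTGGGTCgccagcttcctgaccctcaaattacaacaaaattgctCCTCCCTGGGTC
PLEKHG4B intron, chr5:100592-100711: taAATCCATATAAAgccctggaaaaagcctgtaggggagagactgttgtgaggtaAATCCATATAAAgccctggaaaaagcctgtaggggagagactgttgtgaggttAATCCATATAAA
ART1 intron, chr11:3675036-3675155: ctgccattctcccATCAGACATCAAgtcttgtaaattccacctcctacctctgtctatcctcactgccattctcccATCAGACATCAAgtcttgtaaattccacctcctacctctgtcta
chr4 gap edge, chr4:1421304-1421423: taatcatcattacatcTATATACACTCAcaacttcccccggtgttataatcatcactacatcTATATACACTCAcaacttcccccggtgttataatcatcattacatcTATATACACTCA

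These 12 bases occurred 13 times in the chromosome 20 region, most often 49 bases apart, and 25 times in the PLEKHG4B region, most often 53 bases apart. They occurred 16 times in the ART1 region, at 63 bases, and 36 times in the chromosome 4 region, at 46 bases. Such regions were few: 48 of 2331 (2.06%) met that limit, against 1.23% of the regions called in 3 lists.

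The regions were narrow and weakly enriched. Their median width was 1799 bp, and they covered 4.52 Mb in all. The deposited fold over background, averaged over each peak by the peak caller, had a median of 2.44 and 2.47 in the soft libraries and of 2.56 and 2.53 in the stiff libraries. The regions called in 3 lists were not lower by this measure, at 2.53 and 2.59 on soft and 2.69 and 2.67 on stiff, but they were narrower, with a median of 1282 bp. The median −log10 q of the 2331 regions was 3.26 and 2.60 for the soft matrix, 2.39 and 2.40 for the stiff, and thus close to the lowest value that any of the lists holds, 1.31. Across the regions the folds of any pair of libraries had a Spearman correlation between 0.870 and 0.894, a description over regions chosen for being called in both.

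The libraries differed in how much of each region they covered. Soft replicate 1, whose list was the longest with 19843 peaks against 6974 to 9228 in the others, covered 79.2% of the width of the regions, soft replicate 2 covered 65.8%, and the stiff libraries 57.4% and 58.4%. The regions took up 12.2% of the peaks of soft replicate 1, 25.6% of those of soft replicate 2, and 33.5% and 34.0% of the stiff peaks. Of the regions called in 3 lists, 67 lacked the call in soft replicate 1, 636 in soft replicate 2, and 868 and 867 in the stiff replicates. Membership was thus mostly settled by the 3 shorter lists. The regions nearest to the limit lay at a −log10 q of 1.31 (chr5:146578853-146580313, 34.2 kb from STK32A) to 1.33 (TRPM3 and a region 1.53 kb from SP5). Those just outside it, called in 3 lists, had lowest values of 1.32 and 1.33, one of them at the start of UNC13A, a synaptic vesicle priming gene.

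To find out which genes carried these regions, start sites of protein-coding transcripts were taken from GENCODE. Of the 2331 regions, 234 (10.04%) held such a start site, against 6.11% of the regions called in 3 lists, 2.01% of those called in 1 or 2 lists, and 35.4% of those that touched H3K4me3. Wider regions can hold more start sites, and the median widths, in the same order, were 1799, 1282, 545 and 2022 bp. The part of width in these shares was not tested. In all 234 genes, 1.18% of 19794, had a start site in a region. Of these genes, 32 had H3K4me3 within 1 kb of some start site, outside the region itself. The 234 regions with a start site were wider than the rest, at a median of 2348 against 1743 bp, and richer in CG pairs, with a median observed to expected ratio of 0.434 against 0.254. Their median folds were 2.39 and 2.38 on soft and 2.48 and 2.50 on stiff, and those of the other regions 2.45, 2.48, 2.56 and 2.54. As the lists of gene families below were chosen with earlier results of these data known, they are described by counts alone, and no count is a test.

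Developmental transcription factors had 14 of 216 start sites in a region (6.48%, against 1.18% of all genes). In regions called in 3 lists the share was 1.39%, against 0.763% of all genes. In regions called in all 4 lists that touched H3K4me3 it was 1.85%, against 0.505%. The highest −log10 q among them was at DLX3, a homeobox factor of skin, tooth and bone. Its region was 5838 bp wide and had folds of 2.00 and 2.07 on soft and 2.11 and 1.99 on stiff. Neighbouring DLX4 had a region of its own, with folds of 2.07 and 1.76 on soft and 2.20 and 2.39 on stiff. DLX5 and DLX6, paired homeobox genes of limb and craniofacial development on chromosome 7, held 1 region each. Folds at DLX5 were 2.04 and 2.06 on soft and 2.09 and 2.14 on stiff. At DLX6 they were 1.99 and 2.16 on soft and 1.98 and 1.88 on stiff. None of these 4 regions passed the adjusted test of soft against stiff that is given with all regions.

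Factors of organ patterning and stem cells also held regions. PAX2, a paired box factor of kidney and optic nerve development, had folds of 1.70 and 1.74 on soft and 1.74 and 1.92 on stiff. SOX2, the pluripotency and neural progenitor factor, had 2.97 and 3.16 on soft and 2.84 and 2.90 on stiff. PAX9, a factor of the pharyngeal pouches and teeth, had 2.10 and 2.20 on soft and 2.18 and 2.19 on stiff, and its region also overlapped a p-JUN peak. TBX5, the heart and forelimb factor, had 1.92 and 1.87 on soft and 1.97 and 1.88 on stiff. Other start sites in regions were those of SOX5, NEUROG3, NKX1-2, FOXN1, TBX21 and FOXA2. Of the 14 factors, 4 had H3K4me3 within 1 kb of some start site, namely DLX4, DLX6, PAX9 and SOX5. FOXA2, a pioneer factor of endoderm and liver, was also the single start site among 22 hepatocyte genes, and its folds were 2.48 and 2.40 on soft and 2.03 and 2.16 on stiff.

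Of 65 genes with WNT, BMP, GDF, FGF or hedgehog symbols, called ligands here, 4 (6.15%) had a start site in a region. The share was 3.08% in regions called in 3 lists and 7.69% in those called in all 4 that touched H3K4me3. SHH, which patterns the neural tube and limb, had folds of 2.15 and 2.31 on soft and 2.36 and 2.33 on stiff. FGF14, a fibroblast growth factor homologous factor of neurons that is counted here by its symbol, had 2.66 and 2.63 on soft and 2.74 and 2.97 on stiff. WNT11, a ligand of the planar polarity branch, had 2.40 and 2.38 on soft and 2.43 and 2.53 on stiff. GDF2, which encodes BMP9 and is made in the liver, had 2.10 and 2.15 on soft and 2.23 and 2.28 on stiff, with a lowest −log10 q of 1.46. None of the 4 passed that test either, and of the 4 only FGF14 had H3K4me3 within 1 kb of some start site.

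Genes of excitable cells formed another group. Start sites of 6 of 152 ion channel genes (3.95%, against 1.18% of all genes) lay in regions, namely KCNA2, KCNIP1, KCNK4, CACNA1E, KCNJ9 and KCNK17. KCNA2, a voltage-gated potassium channel of axons, had the highest −log10 q of these and folds of 2.16 and 2.05 on soft and 2.10 and 2.18 on stiff. Of 107 neurotransmitter receptor genes, 6 (5.61%) did so, namely GRIN2C, HTR4, CHRNA2, GRM3, DRD1 and GRM4. The region of GRIN2C, an NMDA receptor subunit, reached folds of 2.17 and 1.94 on soft and 2.26 and 2.22 on stiff. That of the serotonin receptor HTR4 had 2.74 and 2.91 on soft and 3.66 and 3.07 on stiff. None of these 12 channel and receptor genes had H3K4me3 within 1 kb of a start site in any list. Of all 234 genes with a start site in a region, 32 did, so most of them lacked it too.

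Among other families the counts were low. Of 367 solute carrier genes, 8 (2.18%) had a start site in a region, including SLC22A6, the organic anion transporter of kidney, with 2.23 and 2.13 on soft and 2.11 and 2.25 on stiff. Of 44 collagen genes only COL15A1, a basement membrane collagen, did so, with folds of 2.46 and 2.77 on soft and 2.57 and 2.49 on stiff. CDH12 was the single one of 23 cadherins and had H3K4me3 within 1 kb of some start site. Start sites of 3 cadherins (13.0%) lay in regions called in all 4 lists that touched H3K4me3. The defensins DEFB104A and DEFB106A on chromosome 8 were 2 of 46. Each of their regions, like that of CDH12, had a near-identical copy elsewhere in the genome. ZNF zinc finger genes (1 of 509), olfactory receptors (1 of 381), and keratins and keratin-associated proteins (1 of 149) lay below the share of all genes. No start site lay in a region for 39 HOX cluster genes, of which 29 had H3K4me3 in all 4 libraries, for 53 clustered protocadherins, 27 taste receptors, 76 cancer-testis genes or 83 ribosomal protein genes. All 83 ribosomal protein genes, which every cell uses, had H3K4me3 in all 4 libraries, and none had a start site in a region called in all 4 lists that touched H3K4me3 or in one called in 3 lists.

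**Figure D1:**
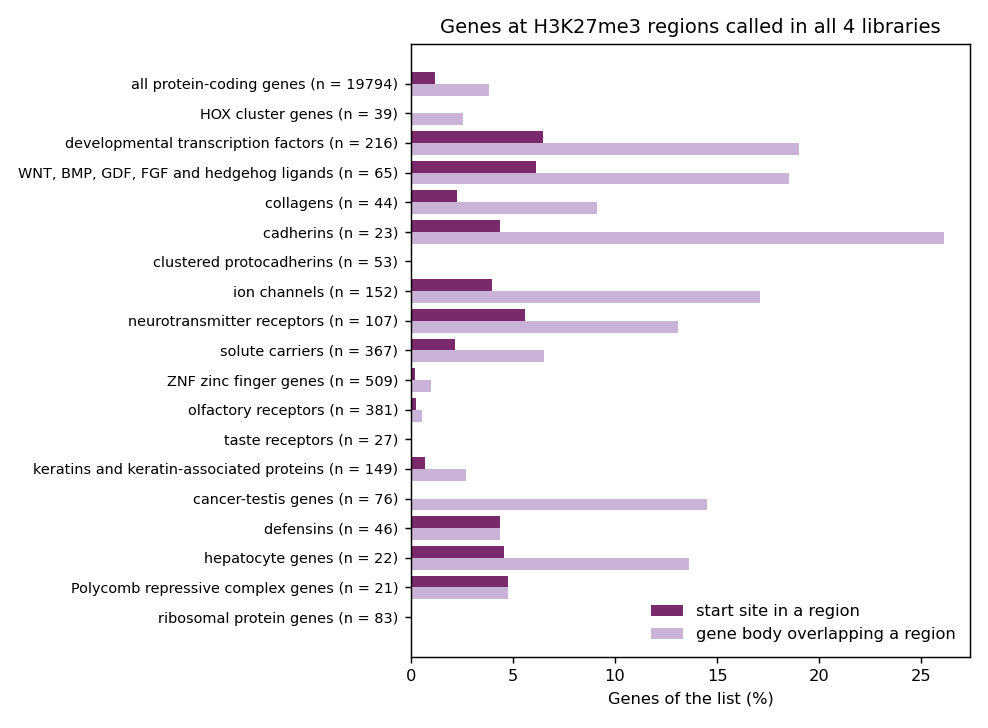
Share of the protein-coding genes of each list (horizontal axis, %) whose start site lay in 1 of the 2331 regions (dark bars) or whose body overlapped one (light bars), with the number of genes in brackets. Start sites reached 6.48% for developmental transcription factors and 6.15% for the ligands against 1.18% of all genes, and bars of zero length are counts of 0.

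Gene bodies told a similar story with larger counts, though body overlap grows with gene length. A region overlapped the body of 759 of these 19794 genes (3.83%). The share was 19.0% for developmental transcription factors, whose median length was 7.48 kb against 27.04 kb for all genes, and 18.5% for the ligands (18.7 kb). For cadherins it was 26.1%, for ion channels 17.1% and for neurotransmitter receptors 13.1%, with median lengths of 140, 59.0 and 53.8 kb. The 11 cancer-testis genes with a region in the body (14.5%) were without a start site in one, and the GAGE genes among them are described with the assembly gaps. Of all regions 1048 (45.0%) overlapped a protein-coding gene, and 42.4% of their bases lay in such genes, against 45.6% of the sequenced genome.

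RBFOX3 held more regions than any other gene. This gene encodes NeuN, the splicing factor used as a marker of neurons. Its 427 kb body overlapped 23 regions that added up to 54118 bp, and 8 more regions called in 3 lists. The median folds of the 23 regions were 1.96 and 1.98 on soft and 2.00 and 1.97 on stiff. Single regions ranged from 1.63 to 2.27 and from 1.70 to 2.27 in the soft libraries, and from 1.68 to 2.41 and from 1.61 to 2.27 in the stiff libraries. These were low folds for the set, and the lowest −log10 q over the 4 libraries was between 1.42 and 4.42 for each of the 23. The next genes were FSTL4, SLC25A48 and SORCS2, a neuronal sorting receptor, with 7 regions each. CELF4, CTNND2, CUX2, LINGO1, PHACTR3, PPP2R2C and C4orf50 had 6 each. Among all 20136 protein-coding gene records, including those without a mapped protein-coding transcript, 770 had a region in the body and 70 of these had at least 3.

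The RBFOX3 regions were part of the largest group of neighbouring regions. When regions within 100 kb of each other were joined, 230 groups of at least 3 were formed, which held 1149 of the 2331 regions (49.3%), while 770 regions stood alone. The 2438 regions called in 3 lists formed 210 such groups holding 829 regions (34.0%), and the largest had 10 members. The median distance to the nearest region of the same kind was 34.4 kb for the regions called in all 4 lists and 71.8 kb for those called in 3. The largest group lay at chr17:77094075-77875730 and held 37 regions over 782 kb, with 10 regions called in 3 lists among them and none that touched H3K4me3. Besides RBFOX3 it spanned ENPP7, an intestinal sphingomyelinase, and CBX2 and CBX8, which encode readers of H3K27me3 of the kind named above. CBX8 was the single one of 21 Polycomb genes with its start site in a region. That region, chr17:77772221-77775449, had folds of 1.98 and 1.97 on soft and 1.91 and 2.01 on stiff. CBX8 also had H3K4me3 within 1 kb of a start site, as all 21 Polycomb genes did in all 4 libraries.

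**Figure D2:**
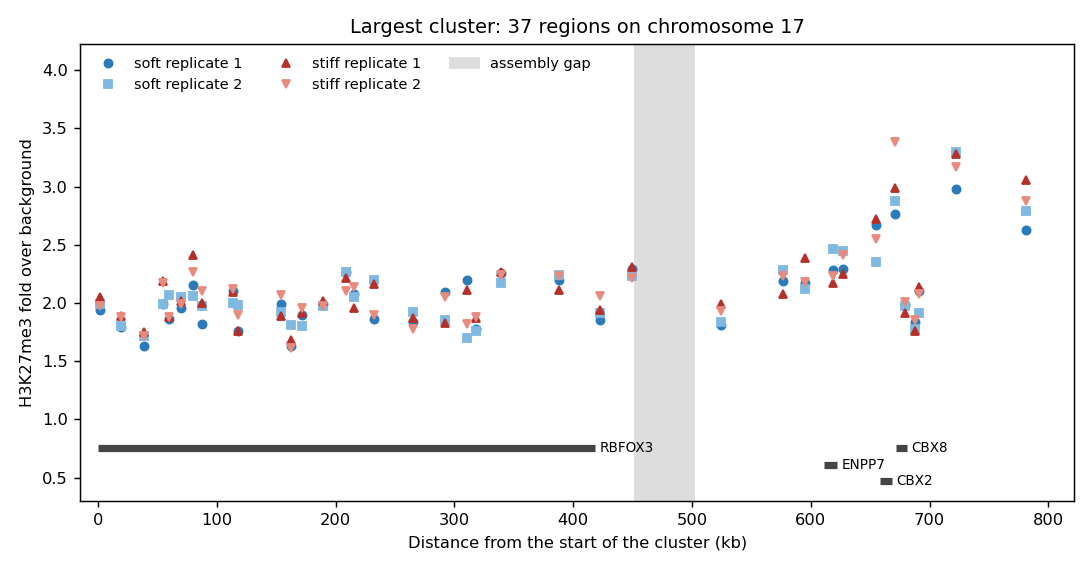
H3K27me3 fold over background (vertical axis) of the 37 regions of the largest group on chromosome 17, by distance from its start in kb, with 1 symbol per library. Bars mark the parts of RBFOX3, ENPP7, CBX2 and CBX8 within the group and the grey band an assembly gap, and the 23 regions over RBFOX3 lay between 1.61 and 2.41 in all 4 libraries.

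The second largest group, chr5:1655388-2302418, held 22 regions next to IRX4, a homeobox factor of the heart ventricle, with median folds of 2.31 and 2.26 on soft and 2.23 and 2.39 on stiff. A group of 21, chr20:61596709-62102715, held its regions across CHRNA4, a nicotinic receptor subunit of the brain, and BHLHE23, a neural helix-loop-helix factor. The fourth, chr4:8622202-8983655, held 20 regions around HMX1, a homeobox factor of eye and ear, and 13 of them lay within 100 kb of an assembly gap. The fifth, chr2:91636202-92030733, held 19 regions and no protein-coding gene, and 17 of them had a near-identical copy elsewhere in the genome. These groups also spanned genes of other kinds, such as MRPL36 and NDUFS6 beside IRX4.

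The regions were unevenly spread over chromosomes. There were 0.815 regions per sequenced Mb in all, 2.94 on chromosome 20, 2.34 on chromosome 17, 1.86 on chromosome 22 and 1.36 on chromosome 19. Chromosome X had 0.298 and chromosome 21 had 0.399. Density also differed within chromosomes. Before the centromeric gap of chromosome 4 there were 84 regions (1.70 per Mb), and past it 13 in 138 Mb (0.0940 per Mb). Chromosome 5 had 123 before its centromeric gap (2.65 per Mb) and 82 past it (0.624 per Mb). Of all regions 777 (33.3%) lay within 10 Mb of a chromosome end, against 28.8% of those called in 3 lists, 23.2% of those called in 1 or 2, and 14.5% of sequenced bases. The fullest windows of 10 Mb were the first of chromosome 5, with 79 regions, the first of chromosome 4, with 72, and chr17:70000001-80000000, with 65.

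The high densities on chromosomes 20 and 17 and the low one on X were not particular to regions called in all 4 lists, though the order of chromosomes differed. Among regions called in 3 lists, chromosome 22 (2.32 per Mb) stood above chromosome 17 (1.62). Chromosome Y had 0.741 regions per Mb called in all 4 lists but only 0.234 called in 3. H3K4me3 regions were densest on chromosome 19, at 20.9 per Mb. On chromosome 20 there were also 2.66 regions per Mb called in 3 lists and 14.4 called in 1 or 2, against 0.852 and 6.95 in the genome, and on chromosome X 0.285 and 3.19. The p-JUN regions numbered 30.2 per Mb on chromosome 20, 36.8 on chromosome 17 and 10.6 on chromosome X, against 21.5 in all, and H3K4me3 regions 8.71, 15.4 and 4.14 against 7.13. The number of copies of each chromosome in this line was not measured here, and its part in these densities was not tested.

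**Figure D3:**
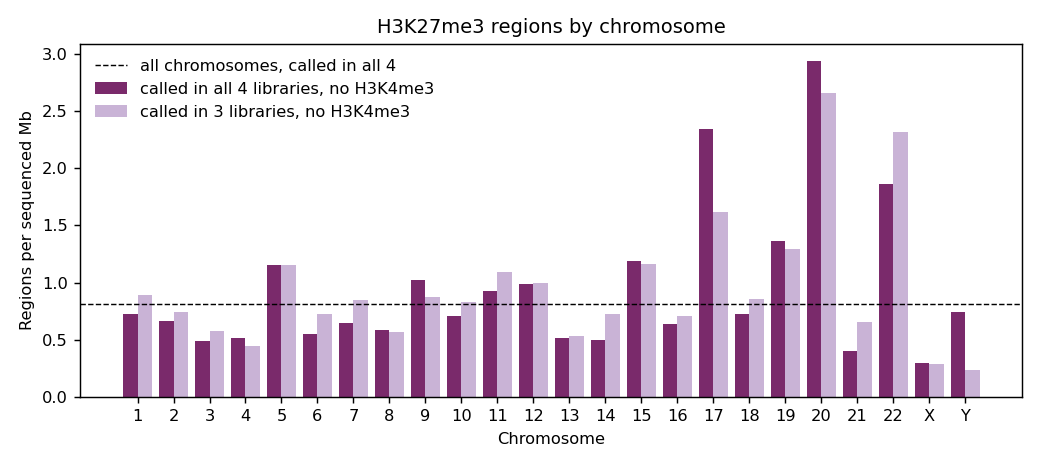
Regions per sequenced Mb on each chromosome, for the regions called in all 4 libraries (dark bars) and in 3 libraries (light bars), both without H3K4me3. The dashed line is the value for all chromosomes, 0.815, and chromosomes 20 and 17 stand highest in the dark bars at 2.94 and 2.34.

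The distance to assembly gaps was examined next, because collapsed or duplicated sequence gathers at the edges of gaps and can draw reads from several loci. Gaps were runs of at least 1000 unknown bases, of which hg19 holds 298 on these chromosomes. Of the 2331 regions, 60 (2.57%) lay within 10 kb of a gap, against 0.492% of those called in 3 lists and 0.192% of sequenced bases. Within 100 kb there were 260 (11.2%, Wilson 95% interval 9.94 to 12.5, counting error only), against 6.19%, 3.90% for the regions called in 1 or 2 lists, and 1.77% of bases. Within 1 Mb there were 722 (31.0%), against 22.7%, 17.2% and 11.3%. The share thus rose with the number of lists at each of these distances but 10 kb, where the regions called in 1 or 2 lists stood at 0.578%. Regions share neighbours and duplicated sequence, so no test was made over them.

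**Figure D4:**
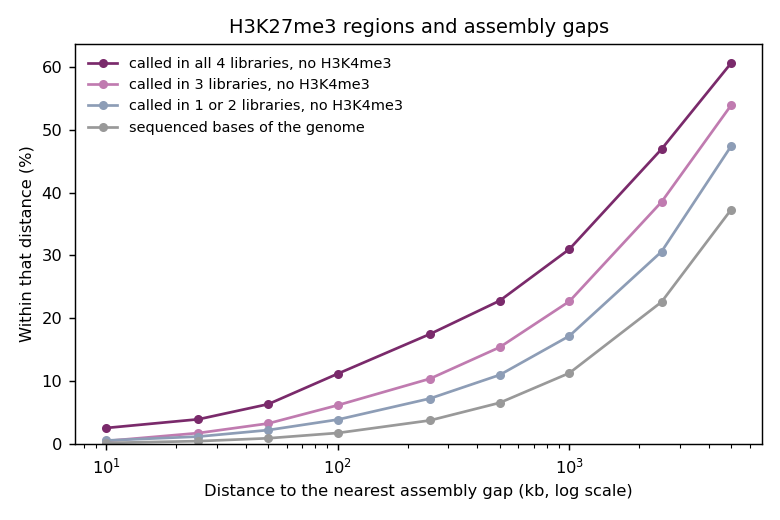
Share of regions (vertical axis, %) that lay within a given distance of an assembly gap (horizontal axis, kb, log scale), for regions called in all 4, in 3, and in 1 or 2 libraries, beside sequenced bases. At 100 kb the lines stand at 11.2%, 6.19%, 3.90% and 1.77%.

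The 260 regions near gaps were of another make than the rest, which was also so among the regions called in 3 lists. A copy of at least 95% identity over at least 50% of the region was found elsewhere for 172 of them (66.2%), against 254 of the other 2071 (12.3%). They were stronger, with median folds of 2.82 and 2.78 on soft and 2.87 and 2.81 on stiff, against 2.42, 2.45, 2.53 and 2.51 for the rest. Only 64 (24.6%) overlapped a protein-coding gene, against 47.5%, and 18 held a start site. How reads with several equal matches were treated is not given in the sources used here, and the part of copies in these folds was not tested.

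Regions lay within 100 kb of 96 of the 298 gaps, of 11 of the 46 gaps at chromosome ends, and of 10 of the 22 gaps of 1 Mb or longer that were not at an end. The gap with the most was chr4:8799204-8818203, within the HMX1 group, where none of the 13 nearby regions had a copy. A further 10 regions flanked chr4:49338942-49488941, beside the centromere, and all 10 had a copy. Another 9 flanked chr4:9274643-9324642, amid the USP17L genes, a tandem family of deubiquitinases, and all 9 had copies. The start sites of USP17L15, USP17L17, USP17L18, USP17L23 and USP17L24 lay in these. At USP17L23 folds were 3.91 and 3.86 on soft and 4.20 and 4.16 on stiff, with 22 copies of the region elsewhere. Another 9 flanked chrX:49242998-49292997, in the GAGE cancer-testis array, and 8 flanked chr17:34675849-34725848, with the start site of TBC1D3I, a member of a hominoid-specific family. Whether reads were shared among the copies of such arrays was not tested, so their values may belong to a family and not to 1 gene.

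The regions closest to a gap lay within 0.168 kb of one. The nearest, chr4:1421298-1423080, was the tandem repeat shown above, at 0.066 kb, 21.1 kb from NKX1-1. Its folds were 4.92 and 4.28 on soft and 4.85 and 4.60 on stiff. Second nearest was chr9:139165375-139166861, 27.7 kb from QSOX2, which had neither a copy nor recurring words, and folds of 4.57 and 4.06 on soft and 4.59 and 4.13 on stiff.

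Ranked by their lowest −log10 q over the libraries, the regions were led by chr20:47131665-47132873, the repeat 108 kb from PREX1, with values of 254 and 170 on soft and 175 and 204 on stiff. Its folds were 5.28 and 4.81 on soft and 4.94 and 5.04 on stiff. Next, the PLEKHG4B repeat, chr5:100546-101920, had folds of 4.57 and 3.67 on soft and 4.35 and 4.22 on stiff. In the ART1 repeat, chr11:3675036-3676031, they were 6.75 and 5.50 on soft and 6.68 and 6.79 on stiff. A repeat 15.5 kb from ARSA, chr22:51082063-51083100, had the highest folds of the 8, at 8.53 and 6.39 on soft and 7.71 and 7.58 on stiff. Then came a USP17L11 region with 21 copies elsewhere and folds between 5.73 and 6.77. Of the 8, all but the USP17L11 region also overlapped a p-JUN peak, and those at PLEKHG4B and ARSA an H3K27ac peak. Peaks of 3 antibodies at the same repeat are given here as measured, and the part of the repeat in them was not tested.

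The widest regions were of a different kind. The first, chr2:90452282-90458927, was 6646 bp wide and lay 80.8 kb from a gap with 9 copies elsewhere. The third, chr1:205535359-205541641, covered the start of MFSD4A, a membrane transporter gene, with folds of 1.89 and 1.91 on soft and 2.14 and 2.10 on stiff. Also among the widest, chr17:77253200-77259243, lay in RBFOX3.

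H3K27ac was sparser in these regions than in the genome, and p-JUN was not. The rule had removed every region that touched H3K4me3, so the genome is an uneven reference for both. An H3K27ac peak of either matrix overlapped 10 of the 2331 regions (0.429%), 5 of them within 100 kb of a gap. The shares were 0.246% for the regions called in 3 lists and 0.0402% for those called in 1 or 2. The soft H3K27ac list had 1.11 summits per Mb of the regions and the stiff list 1.77, against 6.37 and 4.66 in the genome, with 1 merged list per matrix and hence no replicate error. The regions called in 3 lists had 0.868 and 1.45, and those called in 1 or 2 lists 0.138 and 0.415. Regions that touched H3K4me3 had 57.2 and 65.8. A p-JUN peak of any library overlapped 129 regions (5.53%), 49 of them in all 4 libraries, against 3.24% of the regions called in 3 lists and 1.57% of those called in 1 or 2. Wider regions can also touch more peaks, these classes differ in width, and the part of width was not tested. The p-JUN summits numbered 21.92 and 19.70 per Mb of the regions in the libraries labelled soft and 17.05 and 21.25 in those labelled stiff, against 18.06, 16.83, 17.01 and 18.93 per Mb of the genome in the same libraries. Per Mb of the regions called in 3 lists they numbered 15.0 and 12.1 on soft and 11.9 and 15.6 on stiff. Of the regions within 100 kb of a gap 16.9% overlapped a p-JUN peak, against 4.10% of the rest. Among the regions called in 3 lists these shares were 9.93% and 2.80%. There were 73.2 and 79.3 p-JUN summits per Mb of the regions near gaps on soft and 59.0 and 71.2 on stiff. Away from gaps there were 15.6 and 12.4 on soft and 11.9 and 15.2 on stiff, below the genome value of the same library in each case. The AP-1 motif (TGACTCA or TGAGTCA, which are each other's reverse complements) lay within 50 bases of 11.1% and 8.99% of the summits in the regions on soft and of 10.4% and 11.5% on stiff. Elsewhere it lay there at 30.6% to 32.8% of summits.

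To ask whether the matrix changed H3K27me3 fold at regions called on both, the log2 fold of each of the 2602 regions called in all 4 lists was centred on the median of its library and fitted with limma. The rule had already required a call in both soft and both stiff lists, and fold was read from those calls. A region that lost its call on either matrix could not be among them, so the values below describe how far retained regions differed. No region passed a Benjamini-Hochberg adjusted p of 0.05 (background 0%), and the lowest adjusted p among the 2331 regions was 0.685. At an unadjusted p under 0.05 there were 143 of the 2331, 54 of them higher on stiff, and 173 of the 2602. The difference between matrices had a median size of 0.0638 on the log2 scale, and no region differed by over 0.5. Both stiff values lay above both soft values in 370 of the 2331 regions (15.9%), against 15.6% of all 2602, and below them in 453 (19.4%), against 20.1%. Fold is averaged over a called peak, so a change in breadth is not part of it.

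**Figure D5:**
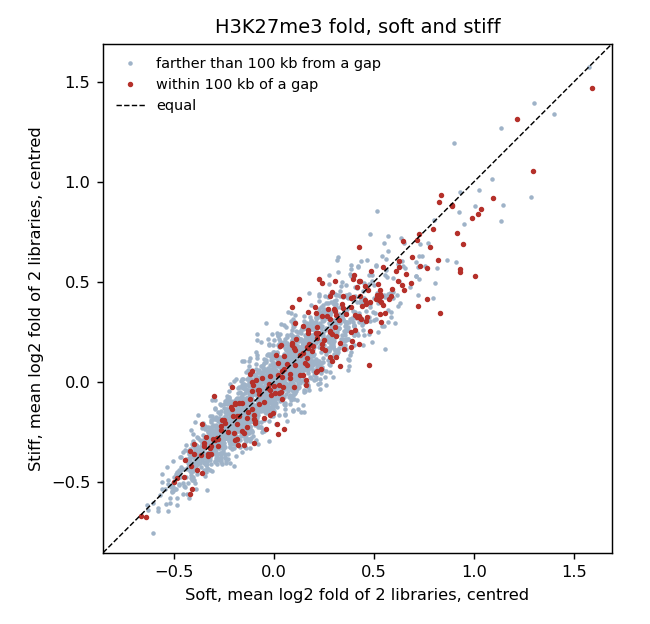
Mean centred log2 fold of the 2 soft libraries (horizontal axis) against that of the 2 stiff libraries (vertical axis) for the 2331 regions, with those within 100 kb of an assembly gap in red and the dashed line at equal values. The points follow the line, and none of them differed between matrices by over 0.5.

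The regions with the lowest unadjusted p serve to show the size of such differences. CST9, a cystatin gene of chromosome 20, held the first among those higher on stiff, with folds of 2.36 and 2.47 on soft and 3.13 and 3.17 on stiff, a centred log2 difference of 0.34 ± 0.0713 (SE, limma adjusted p = 0.685). A region in GOLGA8B had 3.67 and 3.41 on soft and 4.63 and 4.66 on stiff. One in LPA, the apolipoprotein(a) gene, had 2.30 and 2.38 on soft and 2.90 and 3.03 on stiff, and has 4 copies elsewhere. The first among those lower on stiff was chrY:58888073-58889141, 28.5 kb from a gap and with 25 copies, with folds of 3.46 and 3.42 on soft and 2.69 and 2.76 on stiff. SHANK3, a synaptic scaffold gene, held one with 3.16 and 3.26 on soft and 2.74 and 2.61 on stiff. In each of these the groups did not overlap, and none passed the adjusted test.

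Over libraries, the median log2 fold of the 2331 regions came to 1.29 ± 0.0115 (SD, n = 2) in the soft libraries and 1.35 ± 0.0116 (SD, n = 2) in the stiff ones. The stiff libraries were higher by 0.052, with both above both soft libraries (exact permutation test, two-sided, p = 0.333, the smallest that 2 against 2 can give). Without centring, 1580 of the 2331 regions had a higher mean on stiff, and with centring 1087 did, so the order of the matrices at these regions rests on the scaling. The bases covered went the other way, at 3.58 and 2.97 Mb on soft and 2.59 and 2.64 Mb on stiff, a log2 ratio of -0.32 (exact permutation test, two-sided, p = 0.333). Without soft replicate 1 it was -0.18. With the H3K27me3 lists shortened to equal length the median log2 fold differed by 0.027 and the covered bases by -0.29, so the difference in fold was smaller and that in covered bases close to its first value. The p-JUN densities of the regions given above overlapped between the libraries labelled soft and stiff (log2 ratio -0.12, exact permutation test, two-sided, p = 0.667). Without stiff replicate 1 the ratio turned to 0.03.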

How the data were processed

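Peak lists of 14 CUT&Tag samples were analysed. Per the study's methods and the submitters' processing notes, the authors trimmed reads with TrimGalore, aligned them to hg19 with Bowtie2 and marked duplicates with Picard. Peak names point to MACS2, whose version, options and control, like the depth of the H3K27me3 libraries, are not given in the sources used here. The values used are the authors' deposited fold, a ratio to local background averaged over each broad peak, and the deposited −log10 p and −log10 q. The H3K27me3 lists hold no −log10 q under 1.31, and longer lists reach weaker peaks. The labels give 10000 cells per assay and the methods a higher number.

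From these lists, peaks on 24 chromosomes were merged at 1 bp of overlap, which left out 2 mitochondrial peaks per H3K27me3 list. The fold of a region in a library is the width-weighted mean over its peaks. H3K4me3 peaks of all 4 lists removed regions they touched. At most 11 peaks of any pair of lists were identical. Genes came from GENCODE release 44 mapped to GRCh37, and sequence from GRCh37, whose masked pseudoautosomal ends of Y were filled from X. Gaps were runs of at least 1000 N. Copies were found with minimap2 2.31. The matrices were compared by limma 3.58.1 (R 4.3.3, lmFit and eBayes, Benjamini-Hochberg over 2602 regions) and by exact permutation tests over 2 libraries against 2, which cannot go below p = 0.33. The merge and the limma step were tested on simulated data. Tables were made with python 3.11.15, pandas 2.3.3, pysam 0.24.0 and matplotlib 3.10.9.

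The region set, gene lists, tests and alternatives (stricter or equally long lists, other merging and distances, other normalizations, each library left out, a replicate block) were chosen with earlier results of these data known. Regions were named by fixed ranks, namely the 8 with the highest lowest −log10 q, the 5 widest, the 5 nearest to a gap, the 5 largest groups, 3 on each side of the calling limit and the 5 with the lowest limma p in each direction, of which the text describes most. Genes with at least 6 regions in the body, the arrays at gaps and the printed stretches were chosen after values were seen. Wilson intervals cover counting error only. A few genes and 1 stretch of sequence are not reported here.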

Additional observations from a re-analysis of the deposited data

How the results depend on the processing

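The number of regions moved most with the strictness of the call. With peaks of a −log10 q of at least 2 there were 1071 regions and with every library covering at least 50% of the region 848, against 2331. Under these settings 16.0% and 15.8% lay within 100 kb of a gap, 55.1% and 45.3% within 100 kb of another region, 0.934% and 0.825% overlapped H3K27ac, and 8.87% and 8.49% overlapped p-JUN. Start sites were in 11.9% under the first. With lists of equal length 61.9% lay near another region and 6.55% overlapped p-JUN. Leaving out 1 library at a time, the regions called in the other 3 lists numbered 2378 to 3196, with 9.36% to 11.02% near a gap, 8.52% to 8.87% with a start site, 66.1% to 71.4% near another region, 0.313% to 0.541% with H3K27ac and 4.60% to 5.54% with p-JUN. Wider or narrower definitions gave 31.0% within 1 Mb of a gap, 20.1% with a start site of any annotated gene, 18.8% with a coding start site within 1 kb, and 43.6% and 84.9% within 25 and 500 kb of another region. The cause of these shifts was not tested.

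For soft against stiff, 9 of 10 alternatives to the limma fit called 0 regions, the 4 that left out a library among them. The replicate block called 6, all lower on stiff, including the regions at chrY:58888073-58889141 and at 18712931 on chromosome 22. The numbers give no known pairing, and the replicate differences on soft and stiff correlated at 0.0472 over the 2331 regions. From −log10 p in place of fold, the difference at 92296065 on chromosome 2 turned from -0.37 to 0.04. Leaving out 1 library at a time, the median log2 fold differed by 0.044 to 0.06, covered bases by -0.45 to -0.18, and p-JUN density by -0.29 to 0.03, reversed without stiff replicate 1. With lists of equal length the median log2 fold differed by 0.027, against 0.052, and covered bases by -0.29, and p-JUN density with p-JUN lists of equal length by -0.29. Without regions near gaps p-JUN density differed by -0.052. The replicate block gave 0.052, -0.32 and -0.13 for these 3. As the sequencing depth behind the H3K27me3 lists is unknown, a missing call is no measure of absence of the mark.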
